A study of Homo sapiens with 6 samples.

Results

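The 10 genes of the germ line and of meiosis described here are DDX4, DAZL, PIWIL1, PIWIL2, PIWIL4, TDRD1, MAEL, SYCP1, SYCP3 and PRAME. They were chosen by name, to show how much of the germ cell programme is kept by NTERA2/D1 cells, a long-established line from a human testicular teratocarcinoma that resembles pluripotent embryonal carcinoma. All 10 of the 10 listed genes were measured, among 19775 genes on the array. They were read by 14 probe sets of the 54675 on the array, every one of which named a single gene. For 7 of the genes there was 1 probe set each.

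RNA came from 6 samples of this line, each hybridised to 1 array. The control group of 3 arrays received a nonspecific scrambled siRNA, and the other 3 received siRNA against human VAMP7, a vesicle SNARE. Both were transfected 24 h after plating and taken at 72 h of transfection, so by the labels the groups differ in the siRNA, and no untransfected cells were analysed here. The samples are titled as biological replicates, but nothing says that they came from separate days or passages. The p-values below rest on the spread among them, part of which could be technical. The line is a single established cell line, and the values describe these samples of it. RNA was bulk, so fewer cells that carry a transcript and less transcript per cell cannot be told apart.

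In germ cells, PIWI proteins bind small RNAs called piRNAs and silence transposable elements. Tudor domain proteins and the helicase DDX4 assemble this machinery in germ granules. When germ cells enter meiosis, paired chromosomes are joined along their length by the synaptonemal complex, in which SYCP3 belongs to the axial elements and SYCP1 forms the transverse filaments. Many of these genes are silent in somatic cells, where their CpG-rich promoters are held methylated or are bound by PRC1.6, a Polycomb complex that contains the DNA-binding factors E2F6 and MGA with its partner MAX.

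The promoters are shown first because the genes of that repressor complex were also read on these arrays, as given further on. RefSeq promoter windows of GRCh38.p14, from 250 bases before to 50 bases after an annotated start, held 8 of the 10 genes in 13 windows. PIWIL2 and PIWIL4 were not among them. The windows were searched on both strands for TCCCGC, the core of the E2F6 site, and for CACGTG, the E-box bound by MGA and MAX. No match of one motif overlapped a match of the other. TCCCGC or its reverse complement GCGGGA lay in 6 of the 13 windows, those of SYCP1, SYCP3, PIWIL1, MAEL (both windows) and DAZL (1 of 2), against 26.9% of all 35116 windows. CACGTG lay in 4 of the 13, those of TDRD1 (both windows), MAEL and DAZL (1 each), against 7.26% of all. The windows of TDRD1 overlap each other, so its matches are the same sites counted in both. By gene, 5 of the 8 held TCCCGC or its reverse complement and 3 held CACGTG. The ratio of observed to expected CpG ran from 0.12 in DDX4 to 1.12 in MAEL, with a median of 0.746 over the 13 windows and 0.579 over all windows. The 1 window of DDX4 and the 3 windows of PRAME had neither motif. Which annotated start germ cells use was not examined, so a window need not be the germ cell promoter of its gene. The 35116 windows were not matched to those of the members in base composition, so no enrichment is read from the motif shares. A match describes the letters only and shows no binding. The windows of SYCP3 (chr12:101739413-101739712, minus strand), TDRD1 (chr10:114179037-114179336, plus strand) and MAEL (chr1:166989030-166989329, plus strand) show each motif alone and both together, written 5′ to 3′ along the gene with the matches in capitals.
SYCP3: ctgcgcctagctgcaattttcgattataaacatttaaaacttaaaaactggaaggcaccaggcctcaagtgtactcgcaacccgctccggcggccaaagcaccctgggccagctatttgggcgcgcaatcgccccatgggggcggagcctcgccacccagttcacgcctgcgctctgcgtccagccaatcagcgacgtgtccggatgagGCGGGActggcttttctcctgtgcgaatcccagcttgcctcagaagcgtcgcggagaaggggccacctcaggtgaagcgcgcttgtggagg
TDRD1: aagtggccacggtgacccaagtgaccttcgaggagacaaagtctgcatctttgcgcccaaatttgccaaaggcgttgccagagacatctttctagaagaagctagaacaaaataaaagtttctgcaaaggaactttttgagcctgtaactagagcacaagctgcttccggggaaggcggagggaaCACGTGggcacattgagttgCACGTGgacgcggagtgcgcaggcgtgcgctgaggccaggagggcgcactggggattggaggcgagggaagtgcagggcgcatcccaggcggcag
MAEL: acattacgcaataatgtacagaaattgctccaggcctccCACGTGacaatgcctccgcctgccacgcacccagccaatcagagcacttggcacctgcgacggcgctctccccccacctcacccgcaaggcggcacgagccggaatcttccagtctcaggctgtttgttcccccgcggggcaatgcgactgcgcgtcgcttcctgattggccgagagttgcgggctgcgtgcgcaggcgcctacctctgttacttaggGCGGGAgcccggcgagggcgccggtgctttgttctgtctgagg
In SYCP3 the GCGGGA began 41 bases before the start. In TDRD1 the first CACGTG began 65 bases before it and the second 45 bases before it. In MAEL the CACGTG began 211 bases before the start and the GCGGGA at base 8 of the transcript.

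VAMP7, the targeted gene, averaged 2615 ± 127 units on the control arrays against 153.6 ± 19.8 on the knockdown arrays (SD, n = 3), the direction that the labels give. Its log2 fold change was -3.71 (SE 0.11, adjusted p = 0.000362 in limma). The cell line label was checked against 14 markers of pluripotent embryonal carcinoma. POU5F1 and TDGF1 had no probe set assigned to them alone, which left 12 measured. Of the 12, 11 lay at or above the median probe set of the array on all 6 arrays, against 59.3% of all genes. LIN28A was the brightest, at 32840 ± 6855 in control. Array medians ran from 58.71 to 67.39 units. Knockdown replicate 1 had the lowest mean correlation with the other arrays, 0.9837 against 0.9856 to 0.987. A probe set's brightness depends on its own binding as well as on the RNA, so readings of different probe sets give no order of RNA amounts. They are placed here only by their position among all probe sets of the array.

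Of the 10 genes only PIWIL2 was bright. On 2 of its probe sets it lay at or above the array median on all 6 arrays. Of the other member probe sets, 11 were below it on all 6, and 1, that of PIWIL4, lay on both sides. The share of member probe sets at or above the median on all arrays was 14.3%, against 43.2% of all probe sets tested. Of all probe sets tested, 41.1% were below the median on all 6. The other 9 genes had no probe set that met this mark. The 12 dimmer probe sets read between 0.443 and 90.5 units, and none of their genes was read brightly by a second probe set, except PIWIL2 itself.

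**Figure D1:**
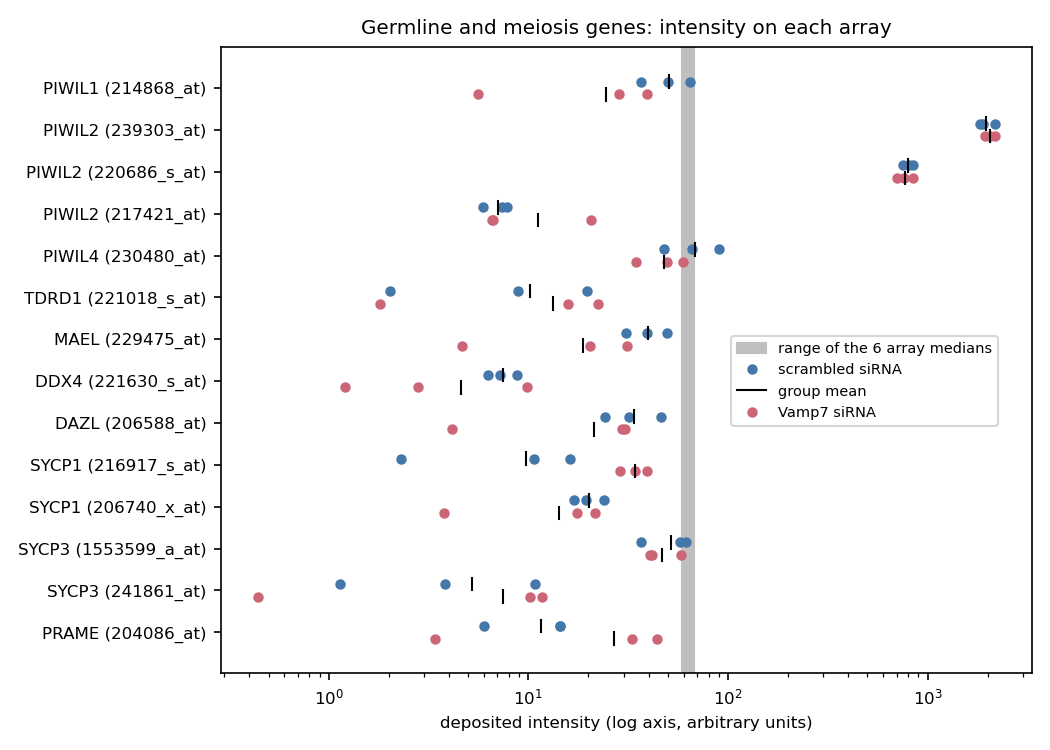
Deposited intensity of the 14 member probe sets on each of the 6 arrays (log axis, arbitrary units), with the group means as vertical bars and the range of the array medians (58.71 to 67.39) as a grey band. Both bright PIWIL2 probe sets lie far to the right of the band, and the other 12 probe sets lie left of it or, for PIWIL1, PIWIL4 and SYCP3, reach it on some arrays.

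PIWIL2 encodes a PIWI protein of the germ cell cytoplasm. Its brightest probe set, 239303_at, read 2174, 1887 and 1826 on the control arrays and 2181, 1932 and 2051 on the knockdown arrays. The groups overlapped, and the probe set lay between the 90.3 and 91.8 percentiles of its arrays. Its log2 fold change was 0.07, with a 95% interval of -0.20 to 0.33 (adjusted p = 0.94 in limma). The second, 220686_s_at, read 808.8, 750.9 and 841.2 in control and 843.5, 704.1 and 758.2 in knockdown. Here too the groups overlapped, with a log2 fold change of -0.06 and an interval of -0.32 to 0.20. The replicates of these probe sets varied little, with coefficients of variation from 5.72% to 9.47% within a group. The third, 217421_at, was dim and did not share this brightness. It read 7.36, 7.80 and 5.94 in control and 6.58, 20.5 and 6.62 in knockdown, 1 knockdown array standing above the other 5.

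The other PIWI genes were dim. PIWIL1, whose protein works in meiotic and later male germ cells, read 36.8, 64.4 and 50.3 in control and 5.61, 28.5 and 39.2 in knockdown. Knockdown replicate 1 was the lowest, and knockdown replicate 3 exceeded the lowest control array, so the groups overlapped. PIWIL1 had a log2 fold change of -0.45 with an SE of 0.20 (95% interval -0.92 to 0.02), or -0.25 without knockdown replicate 1, and it did not pass (adjusted p = 0.763 in limma). PIWIL4, a PIWI protein of the nucleus, read 65.7, 90.5 and 47.8 in control and 34.6, 49.6 and 59.3 in knockdown. It was the only dim member to reach the array median on some arrays, 2 of the 3 control arrays. Its log2 fold change was -0.26 (SE 0.17), with overlapping groups.

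The partners of the PIWI proteins among the members were all below the array median on every array. TDRD1, a Tudor domain scaffold of the germ granule, read 19.7, 2.04 and 8.84 in control and 1.80, 15.8 and 22.2 in knockdown. Each group held an array near 2 units and one near 20, and the log2 fold change was 0.07 (SE 0.17). MAEL, a factor of piRNA-directed silencing, read 49.5, 31.0 and 39.2 in control and 20.3, 4.63 and 31.2 in knockdown. Only knockdown replicate 3 reached the control range, just above its lowest array. MAEL had a log2 fold change of -0.40 (SE 0.17, 95% interval -0.80 to -0.004, unadjusted p = 0.0485, adjusted p = 0.753 in limma). It moved to -0.25 without knockdown replicate 2, the lowest array. DDX4, the germ granule RNA helicase also called Vasa, read 7.21, 6.28 and 8.82 in control and 9.84, 1.21 and 2.79 in knockdown. These readings were within the lowest 19.9% of the probe sets on every array. DAZL, an RNA-binding protein that promotes translation in germ cells, read 45.9, 24.2 and 31.9 in control and 29.5, 4.14 and 30.4 in knockdown. Knockdown replicate 2 stood below the other 5 arrays, and without it the log2 fold change of -0.25 became -0.06.

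The genes of the synaptonemal complex were dim on both of their probe sets. SYCP1 was the only member whose groups did not overlap, and its probe sets disagreed. Probe set 216917_s_at read 10.7, 2.30 and 16.3 in control and 39.4, 34.3 and 28.7 in knockdown, higher on each knockdown array than on any control array. The log2 fold change on it was 0.50 with an SE of 0.12 (95% interval 0.20 to 0.79, unadjusted p = 0.00518), which did not pass after adjustment over all probe sets (adjusted p = 0.63 in limma). Probe set 206740_x_at read 17.0, 23.9 and 19.5 in control and 21.5, 17.6 and 3.76 in knockdown, with a log2 fold change of -0.13 (SE 0.13). Its x marks a probe set whose probes may match other transcripts. All 12 SYCP1 readings were below the median of their array. SYCP3 read 57.6, 61.6 and 36.5 in control and 57.9, 41.8 and 40.5 in knockdown on its brighter probe set, 1553599_a_at, which overlapped fully (log2 fold change -0.07, SE 0.14). Its other probe set, 241861_at, read from 1.13 to 10.7 in control and from 0.443 to 11.8 in knockdown.

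PRAME, a cancer testis antigen that many tumours express, was also dim. It read 6.00, 14.5 and 14.4 in control and 43.9, 33.0 and 3.43 in knockdown. Knockdown replicates 1 and 2 lay above all control arrays and replicate 3 lay below them all. The log2 fold change was 0.28 (SE 0.21), or 0.52 without knockdown replicate 3.

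No member passed the test between VAMP7 siRNA and control. Limma called 0 of the 14 member probe sets at an adjusted p under 0.05, where 1 of 54613 probe sets was called (0.00183%), that of VAMP7. At an unadjusted p under 0.05 there were 2 of 14, SYCP1 higher on one probe set and MAEL lower, against 6.62% of all probe sets, 4.13% higher and 2.48% lower. The count was 1 without control replicate 3, knockdown replicate 1 or knockdown replicate 2, and 4 without knockdown replicate 3. It was also 1 with either other offset, with an intensity trend and robust option or with array weights, and 3 with median centring or the replicate block. The groups did not overlap for 1 of 14, higher in knockdown, against 12.4% of all, 7.28% in that direction. Of the member probe sets 6 lay above 0 and 8 below, where 53.8% of all lay above, with a median log2 fold change of -0.06, against 0.02 over all probe sets. Standard errors of the members ran from 0.105 to 0.214, so differences of the size seen for PIWIL1 or MAEL were not resolved. The fold changes are of intensity + 50, which shrinks both the fold changes and the standard errors of such dim probe sets. With an offset of 16, SYCP1 on 216917_s_at was at 0.99 with an SE of 0.24. The small standard errors of dim members are therefore no measure of precise reading.

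**Figure D2:**
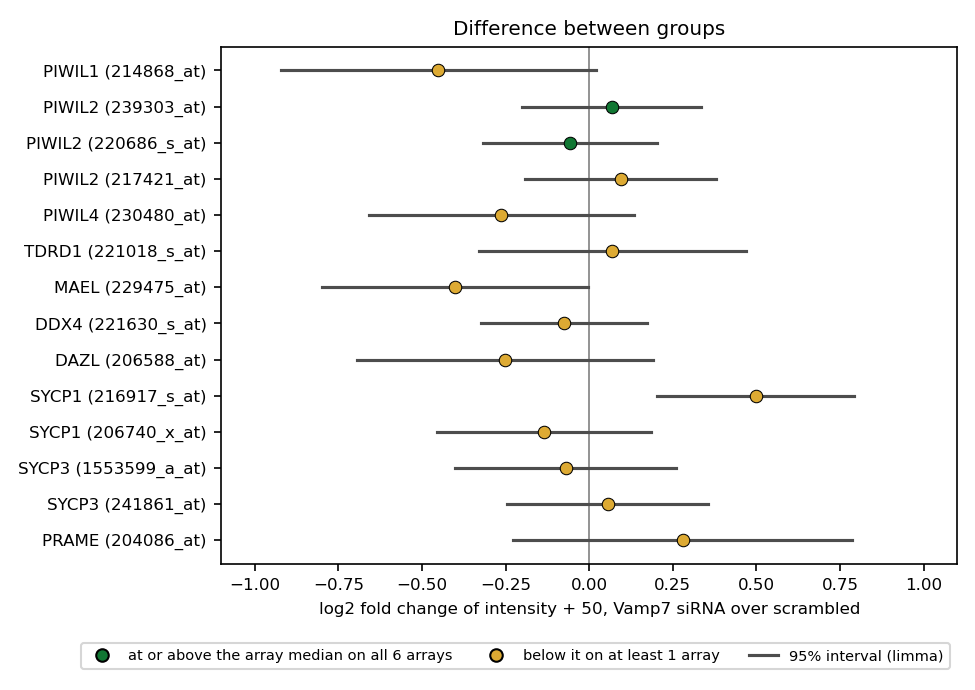
Log2 fold change of intensity + 50 (Vamp7 siRNA over scrambled, 3 arrays each) of the 14 member probe sets, with 95% intervals from limma as lines and colour marking brightness. Only the intervals of MAEL and of SYCP1 on 216917_s_at leave out 0, and both bright PIWIL2 probe sets lie within 0.07 of 0.

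The dim readings came with wide spread between replicates. Over the 12 dimmer probe sets the coefficient of variation within a group ran from 13.9% to 99.5%, with a median of 53.6%. All probe sets below the array median on every array had a median of 62.3%, and those at or above it on every array 10.2%. The median of the members lay between these. Averaged over both groups, the coefficient was 88.4% for SYCP3 on 241861_at, the highest among the members, and 28.8% for PIWIL4. No detection calls were used, so a dim reading is not a statement that the transcript was absent.

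**Figure D3:**
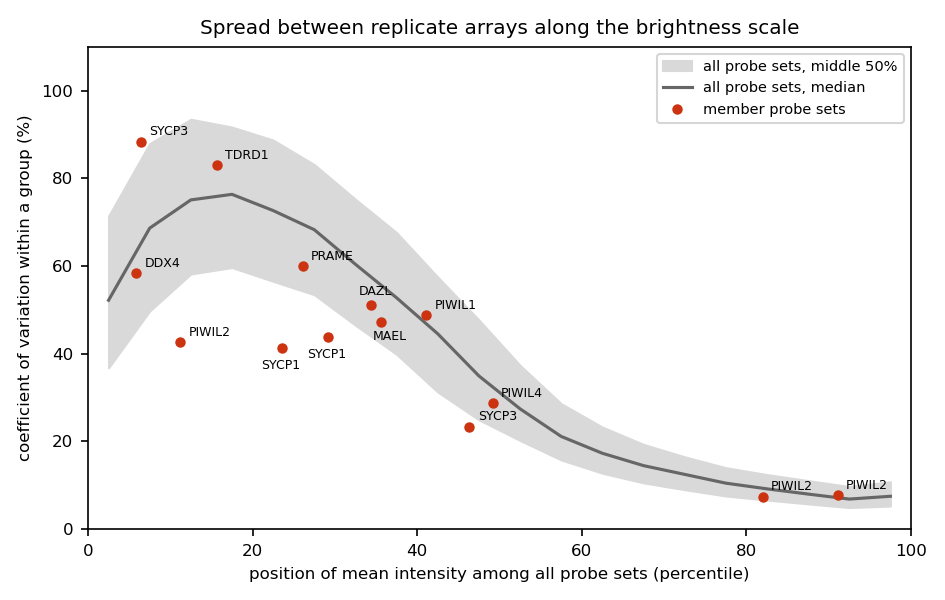
Coefficient of variation within a group (mean of the 2 groups, in percent) against the position of the mean intensity among all probe sets (percentile). The grey line and band are the median and middle 50% of all probe sets in bins of 5 percentiles, and the red points are the member probe sets, with PIWIL2 at 7.43% and 7.76% on the right and the others between 23.4% and 88.4%.

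Other germ cell genes were read from 9 further lists and the PRC1.6 repressors from a list of their own, each gene at its brightest probe set. These 10 lists held 171 genes, 151 of them measured. None of the 151 was called, where limma called 1 of 19775 genes (0.00506%). At an unadjusted p under 0.05 there were 6 higher and 7 lower (8.61%), against 5.89% of all genes, 3.28% higher and 2.61% lower. Of the 151 genes 68 lay above 0, where 50.8% of all genes did. The median log2 fold change was -0.01, against 0.003 over all genes. At or above the array median on all 6 arrays were 33 of the 142 measured genes of the 9 germ cell lists (23.2%), against 59.3% of all genes and 1 of the 10 members. With the repressors, which were all bright, the count was 42 of the 151 (27.8%).

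Among 19 measured piRNA pathway and germ granule genes beside the members, 6 were bright on all arrays (31.6%, against 59.3% of all genes). Below the median on every array were 9, against 5591 of all 19775 genes, and 11 of the 19 lay above 0 in fold change. TDRD12, a Tudor protein of secondary piRNA production, was the brightest, at 5036 ± 521 in control and 4657 ± 188 in knockdown (SD, n = 3). HENMT1, which methylates the ends of piRNAs, read 2192 ± 78.9 and 2180 ± 159, and TEX15, a nuclear factor of piRNA-directed silencing, 580 ± 31.2 and 515 ± 149. HENMT1 and TEX15 are named after their values were seen. A second TEX15 probe set was dim, as was the third of PIWIL2. By smallest p the list named TDRD6, with a log2 fold change of 0.38, and ASZ1, with one of -0.34, both below the median on every array.

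The lists of meiotic entry and of synapsis were mostly dim. Of 6 measured genes of meiotic entry, 1 was bright, MEIOC, at 304 ± 6.92 in control, and 5 lay below 0. SOHLH2, at 0.18, and DMRT1, at -0.20, were the 2 with the smallest p. Of 17 genes of synapsis and the chromosome axis, 3 were bright on all arrays and 9 lay below 0. SUN1, an inner nuclear membrane protein that somatic cells also use, read 4618 ± 484 in control and was the brightest. The cohesin subunit RAD21L1 had a log2 fold change of -0.47 (unadjusted p = 0.00824, adjusted p = 0.654 in limma), and SYCE2, a central element protein of the synaptonemal complex, one of 0.38. Of 21 genes of meiotic recombination 9 were bright on all arrays and 8 dim on all, CCNB1IP1 being brightest at 9042 ± 774 in control, and 14 lay below 0. MSH4 was at -0.34 and TEX11 at -0.49, both dim.

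Lists of germ cell stages follow, with log2 fold changes for the 2 genes of smallest p in each. Of all genes, 59.3% were bright on all 6 arrays, and 5591 of the 19775 were below the median on every array. Of 10 markers of primordial germ cells and seminoma 5 were bright, with the receptor KIT at 1939 ± 142 in control. NANOS3 and SOX17 were below the median on every array. PRDM14 had a log2 fold change of 0.18. PRDM1 read 58.2, 84.9 and 5.02 in control and 105, 75.6 and 103 in knockdown. These groups overlapped, and its log2 fold change of 0.63 (unadjusted p = 0.0879, adjusted p = 0.781 in limma) was 0.25 without control replicate 3, the lowest array. Of 11 spermatogonial genes 7 were bright, FGFR3 most at 4999 ± 488. The other 4, NANOS2, MAGEA4, BOLL and TEX14, were below the median on every array. The log2 fold changes were 0.28 for GFRA1 and 0.19 for UTF1. Of 22 genes of spermatids and sperm 1 was bright, CREM at 1287 ± 84.4, and they were -0.69 for ODF1 and -0.38 for OAZ3. None of 14 oocyte genes was bright, OOEP having the highest mean, and GDF9 and ZP4 were at 0.44 and 0.42. Of 22 cancer testis antigens 1 was bright, SPA17 at 1328 ± 97.6, and 20 were below the median on all arrays, like PRAME, with CTAG2 at -0.37 and MAGEC2 at -0.39. No difference between these lists was tested, nor whether a bright gene is restricted to germ cells.

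All 9 measured genes of the PRC1.6 complex were bright on all 6 arrays, against 59.3% of all genes. They included E2F6, at 1966 ± 184 in control and 1880 ± 120 in knockdown, MGA, at 959 ± 77.2 and 1022 ± 31.6, and MAX, at 3122 ± 227 and 3170 ± 454 (SD, n = 3), which are named, after their values were seen, for the motifs searched above. RYBP was the brightest, at 5433 ± 491 in control. L3MBTL2 had a log2 fold change of -0.31 (unadjusted p = 0.0392) and RING1 one of 0.29, and neither passed. The list had 4 members above 0 and 5 below, with a median of -0.004. Whether this complex acts on the members in these cells was not tested. PIWIL2, the only bright member, had no promoter window to compare.

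**Figure D4:**
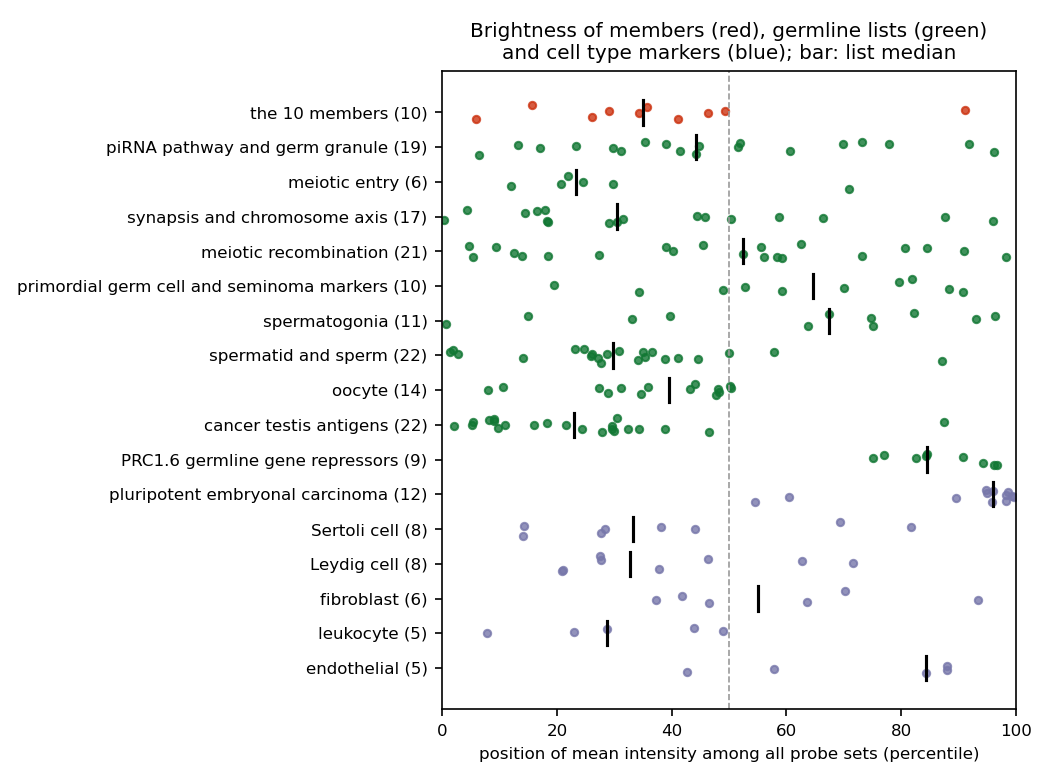
Position of each gene's mean intensity among all probe sets (percentile, brightest probe set of each gene) for the 10 members, the 9 germ cell lists, the PRC1.6 repressors and the 6 lists of cell type markers, with the number measured in parentheses, list medians as bars and the middle of the scale dashed. The members have a median of 35, with PIWIL2 alone at 91.1, and the PRC1.6 genes lie at 75.1 or above.

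Markers of other cells of the testis or culture were read beside these. Bright on all arrays were 2 of 8 Sertoli markers (SOX9 most), 1 of 8 Leydig markers (STAR), 3 of 6 fibroblast markers (COL1A1 most), 0 of 5 leukocyte markers (CD3E having the highest mean) and 3 of 5 endothelial markers (TEK most). None was called. At an unadjusted p under 0.05 there were 1 Sertoli marker lower and 1 leukocyte and 1 endothelial marker higher, where 5.89% of all genes met it. The part of such cells in the members' values was not tested.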

How the data were processed

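The authors deposited 1 table of linear intensities, 54675 probe sets on each of 6 arrays. The deposited intensities were scaled alike, since every array's mean was 500.07 once 2% of values were trimmed from either end. RMA is named without a version, per the submitters' processing notes. RMA gives log2 values, which these are not, and the background correction is not given in the sources used here. Names came from the platform annotation, with symbols updated through gene identifiers in the RefSeq table of GRCh38.p14, where 41037 of 41091 probe sets naming 1 gene matched. Probe sets naming several genes (1801) or none (11721) were assigned to no gene. A listed gene without a probe set of its own counts as not measured.

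All 54613 probe sets other than controls were fitted together on log2(intensity + 50) in limma 3.58.1 (R 4.3.3, lmFit and eBayes), with Benjamini-Hochberg adjustment over all of them. Calls were made at an adjusted p under 0.05. The code was tested on simulated data. Groups and replicate numbers came from the sample titles, and no filter was set on dim probe sets.

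The genes named are VAMP7, all members, and from each germline list the brightest gene and the 2 with the smallest p, and from each marker list the brightest gene. Outside this rule, HENMT1, TEX15, E2F6, MGA and MAX were named after their values were seen. The members and lists were chosen with earlier results of these data known. Alternatives covered the probe sets fitted, a dim filter, offsets, scaling, eBayes options, array weights, the replicate block and the omission of each array. The number of arrays limits the precision.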

Additional observations from a re-analysis of the deposited data

How the results depend on the processing

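Limma called 0 member probe sets and 0 genes of the germline lists in each of the 15 alternatives, while VAMP7 stayed called, from -3.96 (offset 16) to -3.42 (offset 100), and from -3.79 to -3.65 when an array was left out. Only the bright PIWIL2 probe sets passed the dim filter. Of 194 member values under the alternatives, 5 changed sign, on 4 probe sets and only when an array was left out. With an array left out, TDRD1 ran from -0.034 to 0.21, PIWIL2 from -0.12 to 0.00057 on 220686_s_at and from -0.011 to 0.15 on 217421_at, and SYCP3 from -0.000195 to 0.15 on 241861_at. The offset set the size of the dim members' fold changes, with the adjusted test passed at neither. With offsets of 16 and 100, SYCP1 on 216917_s_at was at 0.99 and 0.29, PIWIL1 at -0.80 and -0.28, MAEL at -0.76 and -0.24, DAZL at -0.50 and -0.15 and PRAME at 0.49 and 0.17. With the replicate number as a block, VAMP7 was at -3.71 (adjusted p = 0.0295 in limma) and 0 member probe sets were called. Deviations of same-numbered arrays correlated at -0.03 to 0.044, and those of different-numbered arrays at -0.036 to 0.038. The numbers are therefore not taken as pairs. This check used only the brighter probe sets, so it did not cover the dim members. At these dim signals, small differences were not resolved.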
